A study of Mus musculus with 4 samples.

Results

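The cells described were macrophages of the mouse hindpaw that carried no transcript of Lyve1, the hyaluronan receptor that marks many perivascular resident macrophages, and the question was what separates those with high from those with low MHC class II. They were taken from CD45+ leukocytes of male C57BLKS/J mice, either WT or DB (Lepr db/db, whose leptin receptor is defective, a model of obesity with diabetes), aged 12 or 21 weeks. Each of the 4 conditions was 1 droplet single-cell RNA-seq library from pooled hindpaw cells of 2 to 3 mice, so values between conditions had no replicate check. A cell was included when it had at least 200 genes, at most 10% mitochondrial UMIs (unique molecular identifiers, each counting 1 captured transcript), at least 10 UMIs summed over C1qa, C1qb and C1qc, and no UMI of Lyve1 or Cd3e. These limits gave 2155 cells of the 27800 with enough genes and few enough mitochondrial UMIs, and of 30793 barcodes in all. They numbered 500 from 12-week-WT and 644 from 12-week-DB mice at the younger age and, at the older age, 575 from 21-week-WT and 436 from 21-week-DB mice, and values given without a library's name follow this order. A cell was MHCII-high when ln(1 + H2-Ab1 UMIs per 10000 UMIs of the cell) was at least 2 and MHCII-low below that, which gave 1408 MHCII-high cells (346, 404, 492 and 166) and 747 MHCII-low cells (154, 240, 83 and 270).

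MHC class II molecules show peptides from ingested proteins to CD4+ T cells. Their alpha and beta chains are assembled on the invariant chain Cd74, peptides are loaded by H2-DM and tempered by H2-DO, and transcription of the whole set depends on the coactivator Ciita. Tissue macrophages differ widely in this machinery, and in skin and other connective tissues the cells rich in class II and those rich in Lyve1 and scavenger receptors are commonly treated as separate resident populations. Ciita binds no DNA itself but is held at class II promoters by factors on a conserved pair of elements, the X box, bound by the RFX complex, and the Y box, bound by NF-Y.

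The promoters of the class II genes are shown because these genes moved together. RefSeq promoter windows (GRCm38.p6, 250 bases before to 50 after the start) were found for 8 of 11 genes (H2-Aa, H2-Eb1, H2-Eb2, H2-DMa, H2-DMb1, H2-DMb2, H2-Oa and H2-Ob), with H2-Ab1, Cd74 and Ciita having no entry. The letters TGATTGG, a Y box core, were found in 7 of the 8 genes, H2-DMa being the exception, and in 7.82% of all 32851 windows, searched over their whole length on both strands. The search letters do not overlap one another. AACNGATG, an X box core, was found in 4 genes (H2-Eb1, H2-Eb2, H2-DMb1 and H2-DMb2) and in 2.32% of all windows. On the gene's strand, AACNGATG followed by TGATTGG within 40 bases was found in the same 4 genes and in 7 windows of all, or 0.0213%. The lines give the 100 bases from 130 to 31 before the start, 5′ to 3′ on the gene's strand, with these letters in capitals, for 4 genes that rose and for H2-Ob, which did not pass the test.
H2-Aa, - strand, chr17:34287854-34287953: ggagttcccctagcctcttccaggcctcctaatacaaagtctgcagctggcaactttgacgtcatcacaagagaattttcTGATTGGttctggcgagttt
H2-Eb1, + strand, chr17:34305737-34305836: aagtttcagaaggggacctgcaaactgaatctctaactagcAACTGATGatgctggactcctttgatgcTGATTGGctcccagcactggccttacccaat
H2-DMb1, + strand, chr17:34153061-34153160: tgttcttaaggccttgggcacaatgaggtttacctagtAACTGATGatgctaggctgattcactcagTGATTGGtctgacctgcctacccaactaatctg
H2-DMb2, + strand, chr17:34145119-34145218: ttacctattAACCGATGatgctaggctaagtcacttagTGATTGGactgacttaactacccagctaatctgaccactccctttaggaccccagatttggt
H2-Ob, + strand, chr17:34238775-34238874: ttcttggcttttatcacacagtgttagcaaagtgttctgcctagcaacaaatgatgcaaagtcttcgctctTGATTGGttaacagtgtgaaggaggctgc
The gap between both elements was 20 bases in H2-Eb1 and 21 bases in H2-DMb1 and H2-DMb2. H2-Aa and H2-Ob held TGATTGG alone, and neither held the exact letters AACNGATG anywhere in its window. The pair was thus absent from H2-Aa, which passed the test, and from H2-Ob, which was higher in each library but did not pass.

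H2-Ab1, which encodes the beta chain of I-A and chose the cells, is given as a description. It was at 5310.4, 4073, 6212 and 4579 CPM in MHCII-high cells and 197, 208, 214 and 137 CPM in MHCII-low cells (CPM, the UMIs of the gene per 1000000 UMIs of the summed cells). T cells of the same libraries (at least 2 UMIs of Cd3e, a type that should lack class II in mice) were at 798, 695, 985 and 173 CPM. A group limited to cells of low H2-Ab1 had to lie low, so nothing is read from this order. No H2-Ab1 UMI was found in 8.80%, 9.32%, 3.13% and 30.7% of the Lyve1-negative macrophages, the highest share being that of 21-week-DB. Few cells sat at the threshold: from 1.9 to under 2 there were 12, 17, 3 and 5 cells, from 2 to under 2.1 there were 4, 9, 3 and 14, and 12.4%, 16.8%, 8.35% and 17.4% lay within 0.5 of it. The values formed a separate upper peak in both WT libraries and in 12-week-DB, whereas in 21-week-DB they were spread thinly above the threshold.

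**Figure D1:**
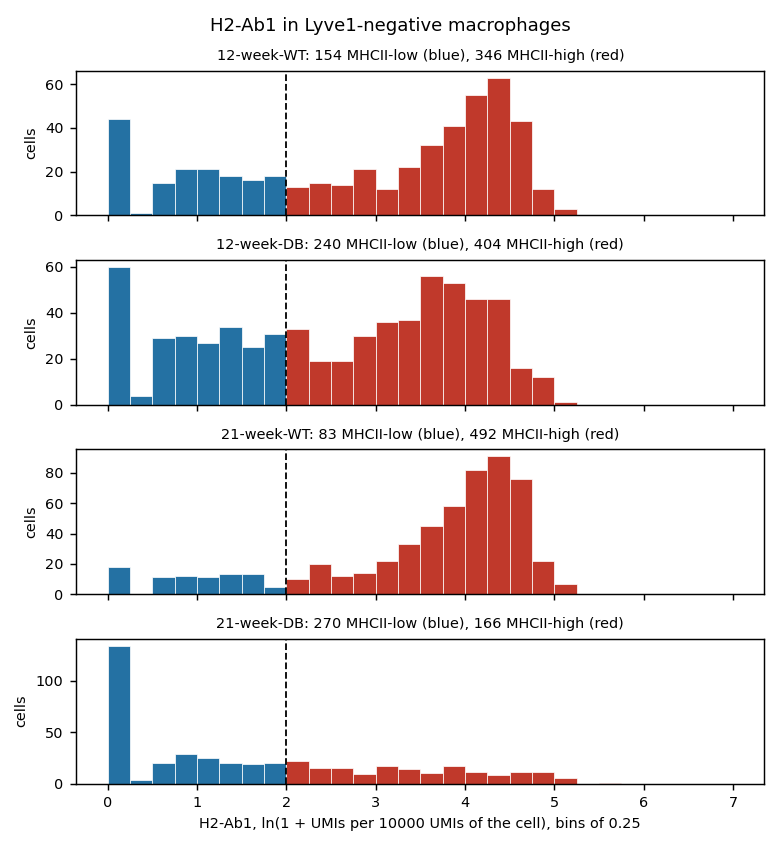
Histograms of H2-Ab1 per cell, as ln(1 + UMIs per 10000 UMIs), in the Lyve1-negative macrophages of each library, with the number of cells on the vertical axis and the dashed line at the threshold of 2. The bin that holds cells without any H2-Ab1 UMI is the tallest in 21-week-DB (134 cells), while in 21-week-WT most cells (492 of 575) lie above the line.

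The share of MHCII-high cells was 69.2% (exact binomial 95% interval 64.9 to 73.2), 62.7% (58.9 to 66.5), 85.6% (82.4 to 88.3) and 38.1% (33.5 to 42.8). It was highest in 21-week-WT and lowest in 21-week-DB, and the 21-week intervals did not overlap those of any other library. These intervals cover counting error within 1 library and not the spread between mice, so no test between conditions was made. The order of these libraries at both ends was the same in all 14 ways of choosing the cells that were compared, with 66.8% to 88.7% in 21-week-WT and 16.7% to 47.0% in 21-week-DB. Among macrophages chosen by the same limits but with Lyve1, 19.6%, 19.7%, 29.4% and 1.62% were MHCII-high, again highest in 21-week-WT and lowest in 21-week-DB, where only 15 of 925 cells passed. H2-Ab1 in T cells, at 798, 695, 985 and 173 CPM, had the same order as the shares of Lyve1-negative cells. H2-Aa UMIs were found in 62.5, 46.6, 65.0 and 13.2% of T cells. Ambient RNA (transcripts of other cells caught in a droplet) was not removed, and its part in the shares was not tested.

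The 8 class II genes that could be tested, H2-Ab1 aside, were at a higher level in MHCII-high cells in all 4 libraries, and those that passed the test differed by 2.47 to 5.38 on the log2 scale. Values are CPM in the summed cells of each library, and fold changes are from edgeR over the 4 pairs of sums, adjusted over all genes tested. Of the 10 genes listed, 8 had enough counts to be tested and 7 were higher, none lower, beside 5.68% of all 9739 genes tested that were higher (10.4% in either direction). The median log2 fold change was 3.91, beside 0.00124 over all genes. Since H2-Ab1 split the cells, genes that vary with it from cell to cell enter these differences by construction. H2-Aa, the I-A alpha chain, was at 8780.3, 6442, 9517 and 6606 CPM in MHCII-high cells and 256, 292, 336 and 176 CPM in MHCII-low cells (log2 fold change 4.99, SE 0.13, adjusted p = 6.20e-10). H2-Eb1, the I-E beta chain, was at 4323, 3095, 4311 and 3875 CPM in MHCII-high cells and 111, 89.7, 128 and 74.5 CPM in MHCII-low cells (log2 fold change 5.38, SE 0.12, adjusted p = 2.23e-10). The groups of both genes lay far apart, with the lowest MHCII-high value above the highest MHCII-low value. Cd74, the invariant chain, was at 14414, 11770.00, 16996 and 13374 CPM in MHCII-high cells and 785, 965, 977 and 575 CPM in MHCII-low cells (log2 fold change 4.20, SE 0.14, adjusted p = 7.20e-09). Ciita, the coactivator, was at 77.5, 89.4, 75.5 and 69.1 CPM in MHCII-high cells and 8.41, 5.23, 10.7 and 5.45 CPM in MHCII-low cells (log2 fold change 3.62, SE 0.18, adjusted p = 2.44e-07). No MHCII-low library reached the Ciita level of any MHCII-high library.

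The peptide loading chains followed. H2-DMb1 was at 842, 725, 881 and 588 CPM in MHCII-high cells and 44.8, 33.8, 44.3 and 33.6 CPM in MHCII-low cells (log2 fold change 4.36, SE 0.10, adjusted p = 2.58e-10). H2-DMb2, the other DM beta chain, was at 134, 106, 184 and 114 CPM in MHCII-high cells and 15.4, 14.9, 13.4 and 5.45 CPM in MHCII-low cells (log2 fold change 3.48, SE 0.20, adjusted p = 8.44e-07). H2-DMa, the shared alpha chain, was at 644, 639.8, 769 and 639.6 CPM in MHCII-high cells and 109, 179.8, 144 and 93.5 CPM in MHCII-low cells (log2 fold change 2.47, SE 0.13, adjusted p = 5.76e-07). This was the smallest difference among the 7 genes, and among the DM genes H2-DMa kept the highest level in MHCII-low cells. H2-DMb1 and H2-DMb2 are near-identical neighbours, so reads may be divided between them with uncertainty. H2-Ob, the DO beta chain that restrains DM, was at 8.18, 10.1, 10.01 and 4.42 CPM in MHCII-high cells and 6.30, 1.61, 6.72 and 1.82 CPM in MHCII-low cells. It did not pass the test (log2 fold change 1.28, SE 0.39, adjusted p = 0.0622). H2-Eb2 and H2-Oa had too few UMIs to be tested, at 2.82 CPM or less in every sum, and each was higher in MHCII-high cells in 3 of 4 libraries.

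Divided by H2-Eb1 at the same threshold in place of H2-Ab1, the cells gave H2-Ab1 at 5629, 4539, 6505 and 5049.6 CPM in the high and 340.5, 378, 489 and 235 CPM in the low group. This restates that both genes vary together from cell to cell, and is given as a description without a test.

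**Figure D2:**
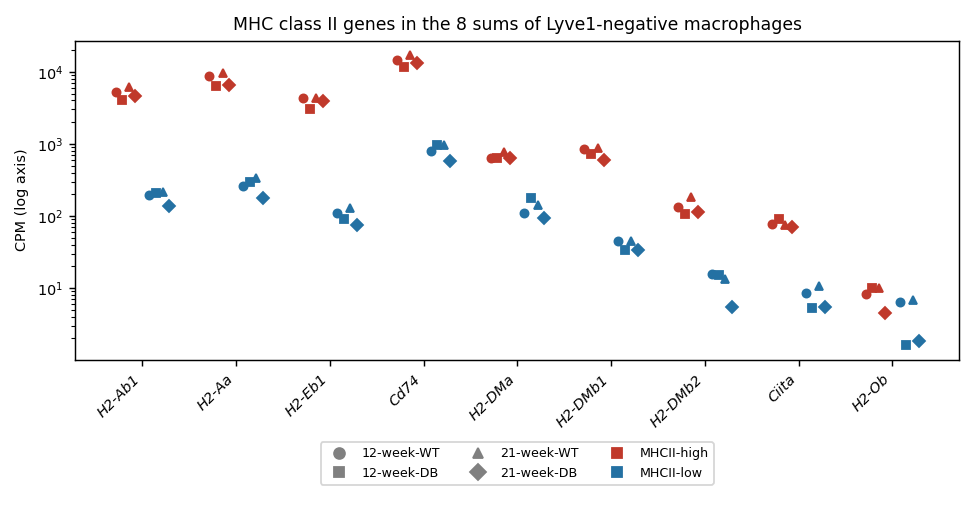
CPM on a log axis of H2-Ab1, which split the cells, and of 8 other class II genes in the MHCII-high (red) and MHCII-low (blue) sums, with 1 marker shape per library. The red and blue markers do not overlap for any gene drawn except H2-Ob, whose values run from 1.61 to 10.1 CPM.

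Over all genes, edgeR's quasi-likelihood test on the 4 pairs of sums called 553 higher and 455 lower in MHCII-high cells at a Benjamini-Hochberg adjusted p under 0.05, of which 204 and 154 differed by at least 2-fold. The 4 MHCII-high and 4 MHCII-low values did not overlap for 184 of the genes called higher and 224 of those called lower. Over all genes tested they did not overlap for 2.22% in the higher direction, 4.78% in the lower and 7% in either. Scaled to total UMIs alone, the split was 395 higher and 635 lower, and the median of all genes fell by 0.08 on the log2 scale, so small differences depend on the scaling. Of all barcodes, 259 occurred in more than 1 library, among them 5, 4, 2 and 0 of the cells described, and without these cells 552 genes were higher and 455 lower. The median UMIs per cell were 8206, 10048, 10423 and 9669.5 in MHCII-high and 8150, 9502.5, 8499 and 7505 in MHCII-low cells, so that MHCII-high cells were deeper in each library and most so at 21 weeks. Cells with at least 2000 UMIs were also thinned to 2000. The C1q, Lyve1, Cd3e and H2-Ab1 limits were then applied to the thinned counts, which gave 442, 358, 343 and 330 cells. A cell could lose its Lyve1 UMIs in thinning, so the cells changed as well as their depth. Between these groups 153 genes were higher and 146 lower, and 22.5% of the main calls were among them.

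**Figure D3:**
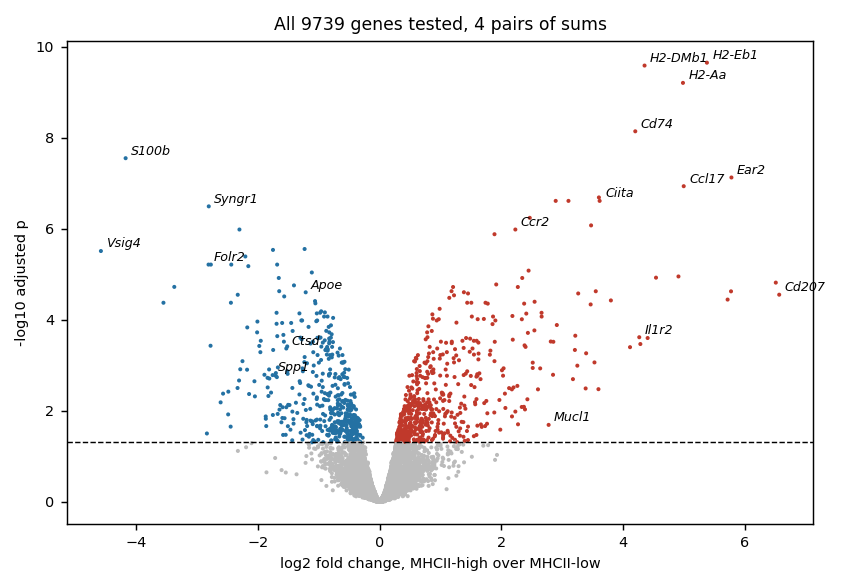
Log2 fold change of MHCII-high over MHCII-low cells against -log10 adjusted p for all 9739 genes tested over 4 pairs of sums, with genes called higher in red (553), called lower in blue (455) and the dashed line at 0.05. H2-Eb1, H2-DMb1 and H2-Aa stand at the top right, and Vsig4 at the far left (-4.58).

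Several monocyte genes were higher in MHCII-high cells. Of the monocyte list, 7 higher and 2 lower of 15 tested were called, beside 5.68% and 4.67% of all genes, with a median of 0.64. The median was 0.28 without 21-week-WT, 0.14 with cells thinned to 2000 UMIs and 0.04 without Ccr2-bearing cells, and no member was called lower without 12-week-WT. Ccr2, the chemokine receptor by which monocytes leave blood, was at 651, 879, 435 and 384 CPM in MHCII-high cells and 123, 275, 109 and 64.5 CPM in MHCII-low cells (log2 fold change 2.23, SE 0.13, adjusted p = 1.04e-06). Its groups did not overlap. Ccr2 UMIs were found in 69.9, 83.4, 71.5 and 52.4% of MHCII-high and 19.5, 47.5, 28.9 and 19.6% of MHCII-low cells. With these groups kept and their cells of at least 2000 UMIs thinned to 2000, the shares were 52.2, 65.5, 45.1 and 30.9% and 9.74, 27.97, 12.2 and 9.47%. T cells of these libraries carry Ccr2 themselves (44.5% to 54.0%), so they give no background for it. Ear2, an eosinophil-type ribonuclease also made by monocyte-derived cells, was at 121, 60.7, 82.1 and 21.6 CPM in MHCII-high cells and 3.50, 0.402, 1.34 and 0.454 CPM in MHCII-low cells (log2 fold change 5.78, SE 0.25, adjusted p = 7.46e-08). The MHCII-low sums held 5, 1, 1 and 1 UMIs of it, so the size of its fold rests on few counts. The integrin Itgal (1.26, SE 0.17, adjusted p = 6.10e-04) and Lst1 (1.22, SE 0.17, adjusted p = 7.02e-04) also rose. In contrast, Cx3cr1, the fractalkine receptor, was lower, at 275, 188, 229 and 213 CPM in MHCII-high cells and 852, 237, 423 and 271 CPM in MHCII-low cells (log2 fold change -0.72, SE 0.18, adjusted p = 0.0237). The matrix proteoglycan Vcan was lower too (-1.20, SE 0.28, adjusted p = 0.0160).

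Cd207, Ccl17 and Il1r2 were among the genes with the largest rise outside class II. Cd207, which encodes langerin of Langerhans cells and some dermal dendritic cells, was at 20.3, 5.92, 50.2 and 628 CPM in MHCII-high cells and 3.50, 0.804, 1.34 and 2.27 CPM in MHCII-low cells (log2 fold change 6.57, SE 0.58, adjusted p = 2.82e-05). The groups did not overlap, but 21-week-DB stood far above the rest, and without it the log2 fold change was 3.42. These UMIs came from few cells: 33 of 166 MHCII-high cells of 21-week-DB held all 1136. In the other libraries 7, 8 and 8 cells held 72, 27 and 286, of which 97.2%, 88.9% and 99.0% were in 5 cells. Ccl17, a ligand of Ccr4, was at 344, 78.7, 155 and 263 CPM in MHCII-high cells and 18.2, 3.22, 2.69 and 4.09 CPM in MHCII-low cells (log2 fold change 5.0, SE 0.22, adjusted p = 1.16e-07). It was found in more cells than Cd207, with UMIs in 17.3, 10.6, 11.8 and 21.1% of MHCII-high against 11.04, 2.92, 2.41 and 2.59% of MHCII-low cells. Still, 5 cells held 56.2%, 56.5%, 57.8% and 49.3% of the Ccl17 UMIs in MHCII-high cells. T cells held Ccl17 in 10.5, 2.90, 5.81 and 2.47%, and the 95% interval of the MHCII-low share held the T cell share in each library. Il1r2, the decoy receptor of interleukin-1, was at 48.2, 12.7, 86.4 and 296 CPM in MHCII-high cells and 9.11, 2.82, 9.40 and 2.72 CPM in MHCII-low cells (log2 fold change 4.27, SE 0.51, adjusted p = 2.43e-04). Its level was highest in 21-week-DB too, and with cells that carried markers of other cell types left out it was 0.70, adjusted p = 0.366, so this call rests on those cells. Ccl17 kept its call then (4.22, adjusted p = 3.94e-08).

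Markers of other cell types moved with the split. The 12 conventional dendritic cell markers summed to 149.97, 97.5, 197 and 889 CPM in MHCII-high and 87.6, 44.6, 28.2 and 34.96 CPM in MHCII-low cells. T cells were at 258, 248, 210.02 and 151 CPM. Of the 4 tested, Cd209a, Cd207 and Epcam were higher. The largest sum was in 21-week-DB, where Cd207 made up 628 of 889 CPM. The T cell sum is not read as a background for each marker. UMIs of the dendritic cell gene Flt3 were found in 13.01, 23.51, 23.98 and 21.69% of MHCII-high and 3.05, 3.64, 5.42 and 0.903% of T cells. For Flt3 and Cd209a the 95% interval of the MHCII-high share held the T cell share in no library. For Cd207 that interval held it in 12-week-DB. The 5 monocyte markers summed to 682, 934, 574 and 426 CPM and 130.3, 321, 156 and 94.9 CPM (Ccr2 and Plac8 higher), against 303, 349, 289 and 294 CPM in T cells. Ccr2 made up most of each MHCII-high and MHCII-low sum. Plac8 UMIs were found in 5.78, 1.73, 9.15 and 0.602% of MHCII-high and 4.57, 2.90, 4.47 and 1.08% of T cells. The 95% interval of the Plac8 share held the T cell share in every group but MHCII-high 21-week-WT. The 7 macrophage markers other than the C1q genes summed to 5299, 5036, 4227 and 7122 CPM in MHCII-high and 10307, 8716, 9872 and 19623 CPM in MHCII-low cells, against 593, 711, 434 and 535 CPM in T cells. Both groups thus lay above T cells in every library, and 6 of the 7 were lower in MHCII-high cells (Pf4, Apoe, Adgre1, Csf1r, Mertk and Cd68). The C1q genes that chose the cells were also lower, with a median of 55.9, 34.6, 42.8 and 31.1 C1q UMIs per 10000 in MHCII-high and 84.2, 42.4, 65.6 and 59.4 in MHCII-low cells. T cell markers stayed at 83.5 CPM or less in every sum and at 2362 CPM or more in T cells. Mast cell markers summed to 53, 62.7, 19.3 and 53.6 CPM in MHCII-high and 305, 15.7, 265 and 91.3 CPM in MHCII-low cells, with no fixed direction and no member called. Il13 and Ctla2a of the innate lymphoid and NK cell markers and S100a8 of the neutrophil markers were lower. Cd2 of the T cell markers and Vwf of the endothelial markers were higher, while no B cell, fibroblast or keratinocyte marker was called. The part of these cell types in the differences was not tested. With cells that held any UMI of 11 markers of dendritic cells, T cells, B cells, mast cells or neutrophils left out, 295 genes were higher and 227 lower. Of these calls 85.3% were among the 1008 main calls, of which the shared ones made up 44.1%. This limit left out 51.4, 60.9, 50.8 and 75.3% of MHCII-high and 52.6, 55.8, 42.2 and 59.6% of MHCII-low cells. In 21-week-DB 41 MHCII-high cells remained. With every cell that had a Ccr2 UMI left out, an alternative chosen after seeing the data, 137 were higher and 85 lower (91.9% of these and 20.2% of the main calls were shared), and none was called in the opposite direction in either case.

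Of the genes of alternative activation, 4 higher and 0 lower of 13 tested were called, beside 5.68% and 4.67% of all genes (median 0.59). The median was 0.25 without 21-week-DB and -0.03 with thinned cells, and without Ccr2-bearing cells 1 of 10 tested was higher. Mgl2, the galactose-type lectin CD301b, was at 233, 137, 184 and 74.1 CPM in MHCII-high cells and 39.2, 13.7, 33.6 and 9.99 CPM in MHCII-low cells (log2 fold change 2.89, SE 0.14, adjusted p = 2.44e-07). Retnla, a resistin-like protein induced by interleukin-4, was at 521, 1349.5, 136 and 46.99 CPM in MHCII-high cells and 167, 131, 22.8 and 0 CPM in MHCII-low cells (log2 fold change 2.81, SE 0.35, adjusted p = 3.02e-04). Its groups overlapped between libraries, although the MHCII-high sum was above the MHCII-low sum in each. Its UMIs were in 28.3, 25.7, 25 and 1.20% of MHCII-high and 27.3, 17.1, 15.7 and 0% of MHCII-low cells. T cells held them in 20.6, 10.8, 20.6 and 0.241%. The MHCII-high and MHCII-low shares in 12-week-WT were thus close. The 5 cells with the most held 75.5% (12-week-WT), 40.8% (12-week-DB) and 66.9% (21-week-WT) of the MHCII-high UMIs. In MHCII-low cells they held 80.3%, 84.7% and 52.9%. In 21-week-DB Retnla had 85 UMIs, all in 2 cells, against none (3 counts would be 1.36 CPM). Without cells that held Ccr2, Retnla no longer passed (1.50, adjusted p = 0.195). Plbd1, a phospholipase B-like protein, was at 109.9, 66.4, 167 and 63.02 CPM in MHCII-high cells and 9.11, 4.02, 13.4 and 8.17 CPM in MHCII-low cells (log2 fold change 3.61, SE 0.17, adjusted p = 2.05e-07). The lectin Clec4b1 was at 128, 123, 81.97 and 46.4 CPM in MHCII-high cells and 14.01, 16.5, 14.8 and 3.63 CPM in MHCII-low cells (log2 fold change 3.10, SE 0.15, adjusted p = 2.44e-07). Flrt3, an adhesion protein, was at 72.4, 45.8, 166 and 256 CPM in MHCII-high cells and 4.20, 15.3, 21.5 and 50.8 CPM in MHCII-low cells (log2 fold change 2.55, SE 0.24, adjusted p = 4.03e-05). It was higher within each library but overlapped between them. Mucl1, an epithelial mucin-like gene, was also called (log2 fold change 2.78, SE 0.67, adjusted p = 0.0206), but 5 cells held 98.1%, 96.0%, 98.1% and 95.1% of its UMIs in MHCII-high cells and the call was lost without 12-week-WT, 12-week-DB or 21-week-WT.

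Scavenger and resident macrophage genes were higher in MHCII-low cells. Of this list 1 higher and 12 lower of 19 tested were called, with a median of -0.96, beside 4.67% of all genes called lower. Without Ccr2-bearing cells 5 of 18 were lower (median -0.60), and with at least 50 C1q UMIs per 10000 those lower numbered 9. Axl, the member called higher, lost its call without 12-week-WT or without 21-week-WT. Vsig4, the complement receptor CRIg, had the largest fall, at 5.36, 2.63, 4.21 and 4.42 CPM in MHCII-high cells and 221, 16.1, 80.6 and 210.2 CPM in MHCII-low cells (log2 fold change -4.58, SE 0.30, adjusted p = 3.09e-06). Groups did not overlap, and 12-week-DB had the smallest difference. Vsig4 UMIs were found in 4.34, 2.97, 3.86 and 4.82% of MHCII-high, 18.2, 6.25, 10.8 and 20% of MHCII-low and 4.42, 2.30, 5.89 and 2.77% of T cells. The median depth of these T cells was 6723.5, 5756, 7443.5 and 5862 UMIs. The 95% interval of the MHCII-high share, which rests on 15, 12, 19 and 8 cells, held the T cell share in each library. Vsig4 in MHCII-high cells could thus not be told from background. With the MHCII groups kept and their cells of at least 2000 UMIs thinned to 2000, their shares were 1.47, 0.744, 1.02 and 0.606% and 11.7, 1.69, 4.88 and 14.4%. In MHCII-low cells Vsig4 was thus found in a minority, and in 21-week-WT the interval of that share also held the T cell share. The 5 cells with the most held 67.7%, 75%, 90% and 41.7% of the Vsig4 UMIs in MHCII-low cells. With all cells that had a Vsig4 UMI left out, also chosen after seeing the data, 475 genes were higher and 370 lower, and 95.4% of these were among the main calls.

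Folr2, the folate receptor beta of resident macrophages, was at 45.95, 19.7, 12.5 and 7.19 CPM in MHCII-high cells and 329, 83.3, 159 and 78.1 CPM in MHCII-low cells (log2 fold change -2.81, SE 0.20, adjusted p = 6.14e-06). Its UMIs were in 22.3, 13.9, 9.55 and 6.63% of MHCII-high and 60.4, 31.2, 36.1 and 27.4% of MHCII-low cells. The scavenger receptor Stab1 was at 133, 45.8, 46.9 and 39.2 CPM in MHCII-high cells and 314, 126, 229.8 and 133 CPM in MHCII-low cells (log2 fold change -1.57, SE 0.14, adjusted p = 3.08e-05). Cbr2, a carbonyl reductase of resident macrophages, was at 112, 34.4, 48.3 and 14.9 CPM in MHCII-high cells and 412, 96.9, 157 and 69.01 CPM in MHCII-low cells (log2 fold change -1.69, SE 0.12, adjusted p = 6.14e-06). Folr2 separated the groups, whereas Stab1 and Cbr2 overlapped between libraries but were lower in MHCII-high cells within each. Colec12, a scavenger collectin (-2.02, SE 0.23, adjusted p = 1.90e-04), and Gas6, the bridging ligand of Axl and Mertk (-1.46, SE 0.16, adjusted p = 1.18e-04), fell too, and Axl was the single member that rose (0.76, SE 0.18, adjusted p = 0.0204). Marco and Cd209g had too few UMIs to be tested.

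Further genes with the largest falls were of mixed roles. Syngr1, a vesicle membrane protein, was at 17.5, 8.55, 13.9 and 13.8 CPM in MHCII-high cells and 127, 52.3, 149 and 78.5 CPM in MHCII-low cells (log2 fold change -2.81, SE 0.14, adjusted p = 3.22e-07). Slco2b1, an organic anion transporter, was at 32.98, 10.96, 14.6 and 6.08 CPM in MHCII-high cells and 179, 42.2, 95.4 and 70.8 CPM in MHCII-low cells (log2 fold change -2.44, SE 0.18, adjusted p = 6.14e-06). Cspg4, the proteoglycan NG2, was at 23.4, 18.6, 15.4 and 13.3 CPM in MHCII-high cells and 148, 69.6, 92.7 and 49.9 CPM in MHCII-low cells (log2 fold change -2.21, SE 0.15, adjusted p = 4.07e-06). None of these 3 overlapped between groups. The myelin and growth-arrest protein Pmp22 (-1.75, SE 0.12, adjusted p = 2.92e-06), the laminin-binding integrin Itga6 (-1.70, SE 0.17, adjusted p = 7.05e-05), the TGF-beta target Pmepa1 (-1.70, SE 0.18, adjusted p = 1.23e-04), the integrin Itgb5 (-1.66, SE 0.13, adjusted p = 1.21e-05) and the serpin Serpinb6a (-1.65, SE 0.14, adjusted p = 2.36e-05) also fell without overlap.

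**Figure D4:**
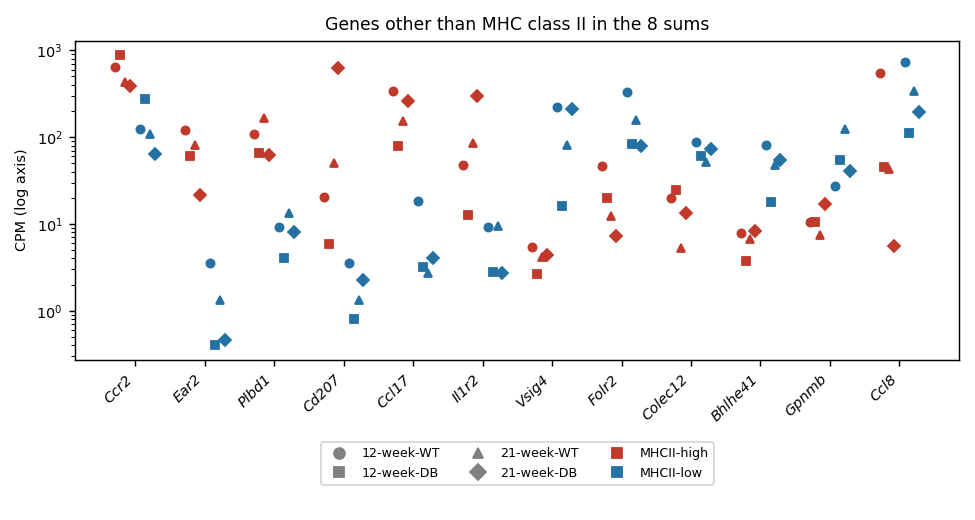
CPM on a log axis of 12 genes outside class II in the 4 MHCII-high (red) and 4 MHCII-low (blue) sums, with 1 marker shape per library. Cd207 in MHCII-high cells runs from 5.92 CPM in 12-week-DB to 628 CPM in 21-week-DB, while Vsig4 in MHCII-high cells stays between 2.63 and 5.36 CPM.

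Most called genes for the handling of antigen in lysosomes were lower in MHCII-high cells, opposite to the class II genes. Of the list, 2 higher and 7 lower of 11 tested were called, beside 5.68% and 4.67% of all genes (median -0.43). Those lower numbered 3 with at least 50 C1q UMIs per 10000, 3 without Ccr2-bearing cells and 5 with thinned cells. The aspartic protease Ctsd was at 330.4, 386, 284 and 251 CPM in MHCII-high cells and 1652, 624, 1060.1 and 748 CPM in MHCII-low cells (log2 fold change -1.54, SE 0.20, adjusted p = 4.30e-04), with no overlap. Ctsb (-0.86, SE 0.09, adjusted p = 8.53e-05), Ctsl (-0.90, SE 0.09, adjusted p = 6.91e-05), the asparaginyl protease Lgmn (-0.77, SE 0.08, adjusted p = 9.13e-05) and the membrane protein Lamp1 (-0.61, SE 0.08, adjusted p = 5.99e-04) fell as well. Ctss, the protease that trims the invariant chain, was also lower (-0.42, SE 0.08, adjusted p = 0.00415). The exceptions were the aminopeptidase Ctsh, at 381, 412, 424 and 448 CPM in MHCII-high cells and 202, 268, 220.3 and 203 CPM in MHCII-low cells (log2 fold change 0.99, SE 0.10, adjusted p = 5.76e-05), and Ifi30, a lysosomal thiol reductase (0.61, SE 0.09, adjusted p = 0.00122).

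MHC class I and peptide loading genes showed smaller differences than class II. Of 16 tested, 5 were higher and 0 lower, beside 5.68% and 4.67% of all genes (median 0.35). Those called were H2-Q7 (0.75, SE 0.12, adjusted p = 0.00191), the peptide transporter Tap1 (0.73, SE 0.16, adjusted p = 0.0118), H2-T23 (0.59, SE 0.11, adjusted p = 0.00670) and the immunoproteasome subunits Psmb8 (0.57, SE 0.11, adjusted p = 0.00480) and Psmb9 (0.59, SE 0.15, adjusted p = 0.0262). Without 12-week-DB or without 21-week-WT 3 were called, and with thinned cells none. H2-Q6 and H2-Q7 are near-identical and may share reads. Of the interferon-gamma and JAK-STAT list, 3 higher and 0 lower of 14 tested were called (median 0.29): Gbp3 (1.14, SE 0.22, adjusted p = 0.00615), Gbp7 (0.74, SE 0.21, adjusted p = 0.0476) and the kinase Jak2 (0.78, SE 0.12, adjusted p = 0.00139). The chemokine Cxcl10 (0.28, SE 0.21, adjusted p = 0.486) and the transcription factor Irf8 (-0.20, SE 0.09, adjusted p = 0.199) did not pass. Without 12-week-WT 1 member of 15 was called. None of 11 type I interferon genes tested was called by edgeR (median 0.40), with 3 at an unadjusted p under 0.05, and DESeq2 called 0 of 13. Without 21-week-DB 3 were called higher, and 3 of 6 without cells with markers of other types. Isg15, a ubiquitin-like protein, was at 26.8, 18.4, 35.8 and 53.6 CPM in MHCII-high cells and 26.6, 0.804, 8.06 and 33.1 CPM in MHCII-low cells (log2 fold change 1.17, SE 0.38, adjusted p = 0.0793).

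Of the costimulatory genes, 2 of 12 tested were higher and 0 lower, beside 5.68% and 4.67% of all genes (median 0.25). None was called higher with at least 50 C1q UMIs, with thinned cells or without Ccr2-bearing cells. Cd86, a ligand of CD28, was at 77.8, 51.1, 91.8 and 187 CPM in MHCII-high cells and 72.2, 32.6, 122 and 64.02 CPM in MHCII-low cells and did not pass (log2 fold change 0.58, SE 0.23, adjusted p = 0.152). Neither did Cd83 (0.17, SE 0.14, adjusted p = 0.557) or Icosl (0.34, SE 0.17, adjusted p = 0.266). The 2 called were the inhibitory receptor Cd200r1 (0.95, SE 0.12, adjusted p = 4.30e-04) and Tnfsf9, the ligand of CD137 (0.53, SE 0.11, adjusted p = 0.00746).

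All inflammatory cytokine and chemokine genes that passed the test were higher. Of 21 tested, 10 were higher and 0 lower, beside 5.68% and 4.67% of all genes (median 0.59). Il1b was at 154, 180.4, 921 and 2761 CPM in MHCII-high cells and 32.2, 11.7, 258 and 824 CPM in MHCII-low cells (log2 fold change 2.34, SE 0.25, adjusted p = 9.78e-05). It was higher in MHCII-high cells within each library, but the groups overlapped, since both 21-week libraries lay above both 12-week libraries in either group. Ccl5, a chemokine that attracts T cells and monocytes, was at 19.7, 17.3, 35.6 and 139 CPM in MHCII-high cells and 3.50, 2.82, 6.72 and 6.36 CPM in MHCII-low cells (log2 fold change 3.55, SE 0.30, adjusted p = 2.37e-05). Il6 (2.66, SE 0.27, adjusted p = 8.53e-05), Ptgs2, the inducible cyclooxygenase (1.36, SE 0.17, adjusted p = 2.91e-04), Il1a (1.04, SE 0.29, adjusted p = 0.0413) and the anti-inflammatory cytokine Il10 (0.89, SE 0.20, adjusted p = 0.0125) were also called. Without cells that carried other cell types' markers 6 higher and 0 lower of 21 were called, and with at least 50 C1q UMIs per cell 2 higher and 0 lower of 19, where Il1b no longer passed (1.32, adjusted p = 0.0665). Among chemokines of resident macrophages and dendritic cells, 4 higher and 2 lower of 8 tested were called (median 0.42): Ccl6 (1.14, SE 0.21, adjusted p = 0.00486), Ccl9 (0.74, SE 0.11, adjusted p = 8.79e-04), Ccl22 (2.27, SE 0.55, adjusted p = 0.0200) and Ccl17 rose. Ccl8 was at 551, 45.4, 42.8 and 5.53 CPM in MHCII-high cells and 731, 112, 343 and 196 CPM in MHCII-low cells (log2 fold change -1.87, SE 0.45, adjusted p = 0.0218), and Cxcl14 fell as well (-1.87, SE 0.42, adjusted p = 0.0134). Without 12-week-WT 1 member was lower, and without 21-week-WT none. Ccl8 lost its call without 21-week-WT and without cells carrying markers of other types (-0.89, adjusted p = 0.588). The 5 cells with the most Ccl8 held 53.8%, 98.1%, 65.2% and 100% of its UMIs in MHCII-high cells. In MHCII-low cells they held 61.6%, 93.2%, 99.6% and 63.9%, and in 21-week-WT 1 of these cells held 236 of 255 UMIs.

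Of the vascular and growth factor genes, 2 of 19 tested were higher and 10 lower, beside 5.68% and 4.67% of all genes (median -0.45). Those lower numbered 5 without 21-week-WT and 6 without 12-week-WT. The growth factor Pdgfc (-1.58, SE 0.19, adjusted p = 3.04e-04), Hgf (-0.72, SE 0.19, adjusted p = 0.0309), the neuropilins Nrp1 (-0.80, SE 0.17, adjusted p = 0.0112) and Nrp2 (-0.45, SE 0.11, adjusted p = 0.0227) and both TGF-beta receptors, Tgfbr1 (-0.53, SE 0.15, adjusted p = 0.0413) and Tgfbr2 (-0.88, SE 0.10, adjusted p = 1.76e-04), fell. Vegfa, the vascular growth factor, was at 20.9, 10.3, 76.5 and 108 CPM in MHCII-high cells and 2.80, 9.65, 25.5 and 4.54 CPM in MHCII-low cells (log2 fold change 2.37, SE 0.48, adjusted p = 0.00824). Thbs1, a matrix glycoprotein that restrains vessel growth, was at 14.4, 52.8, 123 and 105 CPM in MHCII-high cells and 3.50, 3.62, 14.8 and 39.95 CPM in MHCII-low cells (log2 fold change 2.38, SE 0.30, adjusted p = 3.67e-04). Both rose, in every library. With cells that had a Ccr2 UMI left out, 1 higher and 2 lower of 18 were called.

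Complement genes split both ways (3 higher and 5 lower of 10 tested, beside 5.68% and 4.67% of all genes, median -0.31). Properdin, Cfp, was at 203, 198, 180.3 and 125 CPM in MHCII-high cells and 88.3, 86.1, 73.9 and 28.1 CPM in MHCII-low cells (log2 fold change 1.51, SE 0.14, adjusted p = 4.24e-05). Itgax, the integrin CD11c used to mark dendritic cells, was at 112, 51.9, 59.5 and 38.7 CPM in MHCII-high cells and 6.30, 16.9, 5.37 and 2.72 CPM in MHCII-low cells (log2 fold change 2.91, SE 0.32, adjusted p = 1.31e-04). Neither overlapped between groups. C5ar1, the C5a receptor, fell without overlap, at 132, 122, 77.1 and 115 CPM in MHCII-high cells and 303, 260.2, 199 and 259.7 CPM in MHCII-low cells (log2 fold change -1.12, SE 0.08, adjusted p = 9.16e-06). C4b fell too (-1.98, SE 0.25, adjusted p = 3.78e-04), but its groups overlapped. Fc and phagocytic receptors were as divided (4 higher and 4 lower of 19 tested, median 0.08). Clec4a2 (0.80, SE 0.09, adjusted p = 1.40e-04), Clec4a3 (0.52, SE 0.10, adjusted p = 0.00508), Clec4a1 (0.51, SE 0.09, adjusted p = 0.00486) and the inhibitory Fc receptor Fcgr2b (0.43, SE 0.10, adjusted p = 0.0164) rose. Cd68 (-0.78, SE 0.11, adjusted p = 5.85e-04), Tlr7 (-0.81, SE 0.15, adjusted p = 0.00400), Clec4d (-0.84, SE 0.09, adjusted p = 1.44e-04) and Trem2 fell.

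Lipid handling genes were lower where they were called, with the exception of Lpl, lipoprotein lipase, which was higher (0.56, SE 0.16, adjusted p = 0.0429). Of 18 tested, 1 was higher and 7 lower, beside 5.68% and 4.67% of all genes (median -0.10). Apoe was at 2496, 2489.9, 1975 and 5549 CPM in MHCII-high cells and 5944, 4772, 5484 and 16323 CPM in MHCII-low cells (log2 fold change -1.22, SE 0.11, adjusted p = 2.50e-05). It was lower in MHCII-high cells within each library, but 21-week-DB stood above the others in both groups, so the groups overlapped. Trem2, a receptor for lipids and apoptotic cells, was at 242, 303, 267 and 259 CPM in MHCII-high cells and 581, 514, 599 and 526 CPM in MHCII-low cells (log2 fold change -0.96, SE 0.09, adjusted p = 6.54e-05). Gpnmb, a glycoprotein of lipid-laden macrophages, was at 10.4, 10.5, 7.55 and 17.1 CPM in MHCII-high cells and 27.3, 53.9, 125 and 40.4 CPM in MHCII-low cells (log2 fold change -2.29, SE 0.35, adjusted p = 0.00123). Both were lower without overlap. Spp1, osteopontin, was at 44.8, 42.7, 32.1 and 112 CPM in MHCII-high cells and 135, 58.3, 218 and 612 CPM in MHCII-low cells (log2 fold change -1.76, SE 0.28, adjusted p = 0.00165). In 21-week-DB the 612 CPM of MHCII-low cells came from 46 of 270 cells. The scavenger receptor Cd36 (-1.02, SE 0.12, adjusted p = 2.50e-04), the cholesterol exporter Abca1 (-0.61, SE 0.10, adjusted p = 0.00158) and the protease Ctsk (-1.51, SE 0.24, adjusted p = 0.00155) also fell.

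Transcription factors differed in both directions (6 higher and 5 lower of 25 tested, beside 5.68% and 4.67% of all genes, median 0.05). Batf3, needed for cross-presenting dendritic cells, was at 53, 46.5, 40.4 and 16.03 CPM in MHCII-high cells and 7.71, 9.65, 10.7 and 7.26 CPM in MHCII-low cells (log2 fold change 2.18, SE 0.22, adjusted p = 8.29e-05). Runx3 was at 65.1, 42.7, 84.6 and 134 CPM in MHCII-high cells and 21.02, 14.1, 30.9 and 25.4 CPM in MHCII-low cells (log2 fold change 1.92, SE 0.16, adjusted p = 1.68e-05). Irf4 (1.22, SE 0.11, adjusted p = 2.91e-05), Rel (0.88, SE 0.12, adjusted p = 5.18e-04), Id2 (0.57, SE 0.08, adjusted p = 8.17e-04) and Bhlhe40 (0.48, SE 0.13, adjusted p = 0.0388) also rose. Bhlhe41, a transcriptional repressor, was at 7.89, 3.73, 6.67 and 8.29 CPM in MHCII-high cells and 81.96, 17.7, 48.4 and 54.5 CPM in MHCII-low cells (log2 fold change -2.78, SE 0.20, adjusted p = 6.14e-06). Maf, a transcription factor of resident macrophages, was at 662, 245, 255 and 131 CPM in MHCII-high cells and 1371, 566, 630.1 and 533 CPM in MHCII-low cells (log2 fold change -1.29, SE 0.14, adjusted p = 1.04e-04). Klf2 (-0.39, SE 0.10, adjusted p = 0.0283) and Tcf4 (-0.45, SE 0.10, adjusted p = 0.0149) were lower too. Without 12-week-WT, 3 members were lower. Batf3, Runx3 and Bhlhe41 did not overlap between groups, whereas Maf did. Without cells that had Ccr2, Batf3 (1.12, adjusted p = 0.109) and Maf (-1.02, adjusted p = 0.0694) did not pass, while Runx3 (2.45, adjusted p = 0.000841) and Bhlhe41 (-2.04, adjusted p = 0.00320) did.

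**Figure D5:**
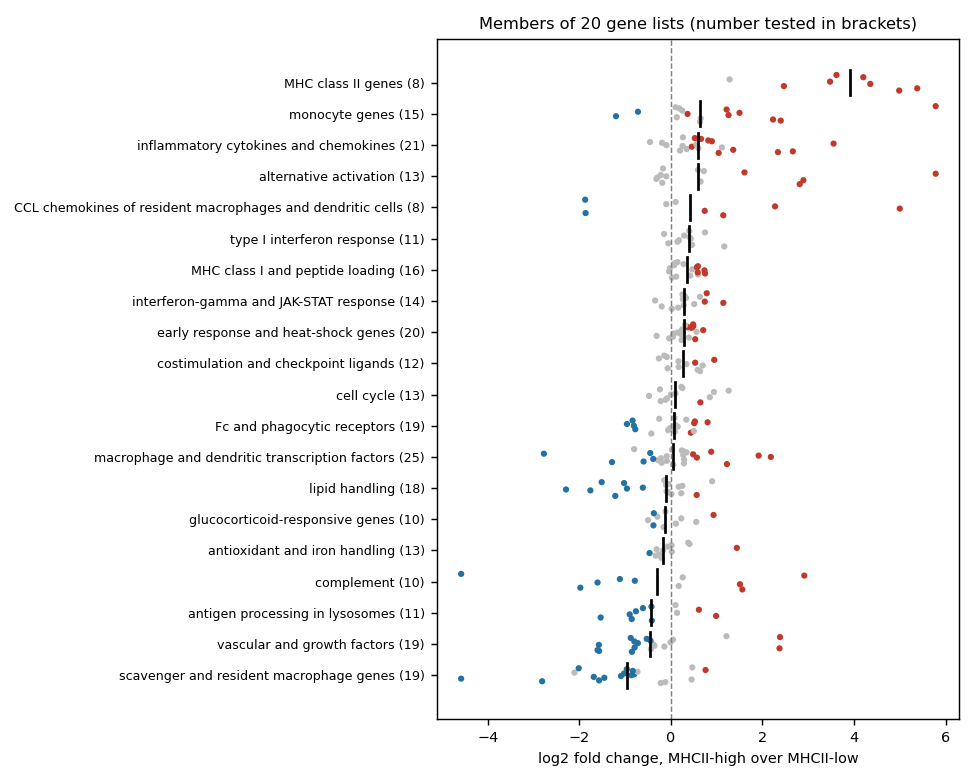
Log2 fold change of each tested member of 20 gene lists, ordered by median (black bar), with genes called higher in red, called lower in blue and not called in grey. The class II list stands apart at a median of 3.91 and the scavenger and resident list lies lowest at -0.96.

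Whether the split differed by genotype was asked with 2 DB pairs against 2 WT pairs. No gene was called by edgeR of 9739 tested (0% in either direction), with 437 at an unadjusted p under 0.05, and DESeq2 called none. H2-Aa differed by -0.17 (SE 0.24) on the log2 scale, and Cd207 by 4.01 (SE 1.29, adjusted p = 0.884). By age, with the 21-week pairs against the 12-week pairs, edgeR again called none (0%), with 480 at an unadjusted p under 0.05, and DESeq2 none. Il1b differed by -1.25 (SE 0.37, adjusted p = 0.655) and Cd207 by 5.20 (SE 0.81, adjusted p = 0.116). A p that misses the threshold does not show that the differences were alike.

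Against macrophages with Lyve1 (703 MHCII-high and 3262 MHCII-low cells), the same contrast differed for 7 of 10215 genes (0.0685%), all with a lower log2 fold change in Lyve1-negative cells. Cspg4 was at 82.8, 34.1, 126 and 103 CPM in MHCII-high and 122, 71.1, 142 and 60.03 CPM in MHCII-low Lyve1-positive cells, lower in MHCII-high cells in 3 of 4 libraries and by less than in Lyve1-negative cells (difference of log2 fold changes -1.87, SE 0.28, adjusted p = 0.0491). Tnip3, an inhibitor of NF-kappaB signalling, was at 279, 198, 225 and 222 CPM in MHCII-high cells and 113, 74.8, 61.8 and 107 CPM in MHCII-low cells among Lyve1-negative cells. It was at 239.9, 117, 84.4 and 284 CPM in MHCII-high and 14.7, 22.1, 9.49 and 21.3 CPM in MHCII-low Lyve1-positive cells (difference -1.92, SE 0.29, adjusted p = 0.0491). The MAP kinase phosphatase Dusp5 (difference -1.77, SE 0.29, adjusted p = 0.0491) and the fatty acid binding protein Fabp5 (difference -1.37, SE 0.22, adjusted p = 0.0491) had a wider gap in Lyve1-positive cells, where Fabp5 was at 145, 127, 99.9 and 142 CPM in MHCII-high and 35.6, 64.3, 30.6 and 57.1 CPM in MHCII-low cells. In Lyve1-negative cells Fabp5 was at 151, 188, 217 and 166 CPM in MHCII-high cells and 97.4, 167, 222 and 189 CPM in MHCII-low cells and did not pass (log2 fold change 0.22, SE 0.12, adjusted p = 0.301). The other three, S100b, Rasgrp3 and Lmo1, had a mean under 50 CPM and were named after their values were seen. S100b was at 9.02, 1.53, 4.91 and 3.32 CPM in MHCII-high and 149, 22.5, 114 and 87.2 CPM in MHCII-low Lyve1-negative cells. The values were 34.8, 27.4, 149 and 108 CPM in MHCII-high and 139.5, 51.9, 206 and 131 CPM in MHCII-low Lyve1-positive cells (difference -3.28, SE 0.37, adjusted p = 0.00441). Leaving out 1 library at a time gave 0 to 9 such calls, with 0 without 21-week-WT, 1 without 12-week-WT and 3 without 21-week-DB. Without Ccr2-bearing cells there were 0 and with total UMI scaling 1. The MHCII-high Lyve1-positive cells of 21-week-DB numbered 15. The highest doublet scores (Scrublet) fell on 10.6, 6.97, 18.1 and 26.7% of MHCII-high and 2.71, 2.08, 2.15 and 5.71% of MHCII-low Lyve1-positive cells. This contrast was not run without them. T cells held Lyve1 at 29.5, 53.4, 118 and 37.0 CPM, so a single Lyve1 UMI may be background.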

How the data were processed

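Single-cell RNA-seq counts (UMIs per gene and cell) were deposited by the authors as 1 filtered matrix per library, made with Cell Ranger 5.0.0 against mm10 according to the submitters' processing notes. The matrix headers name version 5.0.0 for the 12-week and 6.0.0 for the 21-week libraries, so version and age cannot be told apart. Barcodes were filtered as described in the report, and doublets were not removed in the main analysis. Ambient RNA was not removed from the counts. The UMIs of each cell group were summed per library, and the 8 sums were tested with edgeR 4.0.16 (quasi-likelihood test, TMM scaling, filterByExpr, library as a block, since both sums of a pair come from the same library) in R 4.3.3. H2-Ab1, Lyve1, Cd3e, C1qa, C1qb and C1qc chose the cells and were left out of the fit and the library sizes. The CPM values printed refer to all UMIs of a sum, with these genes included. Adjusted p-values are Benjamini-Hochberg values over all genes tested, called under 0.05. Each condition was 1 library and a pair is 2 sums of that library. The p-values thus measure how the difference within a pair varied over 4 libraries, which differ in age or genotype. They do not measure the spread between mice. Intervals for shares are exact Clopper-Pearson intervals, and cover counting error only.

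The cells, the gene lists and the tests were chosen with earlier results of these data known. Named genes were all class II genes, the 15 largest rises and 15 largest falls among called genes that averaged at least 50 CPM and moved 1 way in every library (without mitochondrial, ribosomal and unnamed genes), up to 6 members of each other list by absolute log2 fold change that averaged at least 20 CPM, and up to 5 called genes per direction of each interaction that averaged at least 50 CPM. Further members of a list were named to complete a count after their values were seen.

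Alternatives were other H2-Ab1 thresholds (1.5, 2.5, or both with the cells between left out), a split by H2-Eb1, at least 50 C1q UMIs or 50 per 10000, at most 5% mitochondrial UMIs, at least 500 genes, cells with markers of other types left out, cells thinned to 2000 UMIs, an absolute log2 fold change of at least 0.25, no filter on low counts, RLE size factors, total UMIs without further scaling, DESeq2 1.42.0, no replicate block, and leaving out each library. Removing the highest Scrublet scores (scanpy 1.11.5) at the usual doublet rate, 4.80% to 7.30% of cells, was another, because Scrublet's own threshold marked 55, 92, 0 and 2 cells. Leaving out cells with Vsig4, with Ccr2 or with a barcode found in more than 1 library was added after seeing the data. The fits were tested on simulated data. Python 3.11.15, numpy 2.4.6, pandas 2.3.3, scipy 1.17.1 and matplotlib 3.10.9 were used for sums, intervals and plots.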

Additional observations from a re-analysis of the deposited data

Results flagged for a closer look

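For 5 of 132 genes examined, the log2 ratio of MHCII-high over MHCII-low cells in 1 library stood apart from the ratios of the other 3 beyond the 95% limit for 4 values, where chance alone gives about 1 in 20. Lamp1 was at -0.48 in 12-week-DB, against -0.78 to -0.77 elsewhere. Lst1 was at 1.98 in 12-week-WT, against 0.82 to 0.997. Clec4a3 was at 0.77 in 12-week-WT, against 0.29 to 0.37. Ccl5 was at 4.45 in 21-week-DB, against 2.41 to 2.62, and Cfp at 2.16 in 21-week-DB, against 1.20 to 1.29. All 5 genes had 1 direction in the 4 libraries.

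The contrast of MHCII-high with MHCII-low cells differed between Lyve1-negative and Lyve1-positive macrophages for 7 genes in edgeR's interaction test. The difference of log2 fold changes was -3.28 for S100b (adjusted p = 0.00441), -1.87 for Cspg4, -1.92 for Tnip3, -1.08 for Rasgrp3, -1.77 for Dusp5, -1.37 for Fabp5 and -1.60 for Lmo1 (adjusted p = 0.0491 for each of these 6). In 21-week-DB the MHCII-high Lyve1-positive sum held 15 cells.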

How the results depend on the processing

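No gene called in the main comparison was called in the opposite direction under any alternative, but the counts, 553 higher and 455 lower, moved by over 1.5 times in many. They were 264 and 221 with at least 50 C1q UMIs, 181 and 162 with 50 per 10000, 295 and 227 without cells with markers of other types, 153 and 146 with cells thinned to 2000 UMIs, 137 and 85 without Ccr2-bearing cells, and 909 and 617 with no filter on low counts, and DESeq2 called 287 lower (411 higher). Leaving out each library gave 294 to 595 higher and 236 to 434 lower, with the fewest without 12-week-WT (294 and 236) and without 21-week-WT (297 and 251). Without the replicate block that pairs the sums of a library, 90 were higher and 75 lower. Total UMI scaling gave 395 and 635. The cause of these changes was not tested, beyond fewer cells or genes entering. Of 106 calls followed through the settings, 34 were kept in every one and 72 were lost or changed in at least 1. These calls include the 7 of the Lyve1 contrast, all among the 72, so Cspg4, Tnip3 and Dusp5 count in both comparisons.

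Among the genes followed through all settings, 5 values changed sign where the gene was called in the main analysis or in the alternative. They were Rsad2 split by H2-Eb1 (0.90, adjusted p = 0.031), Ccl24 with at least 50 C1q UMIs (0.76, adjusted p = 0.0361) and Mki67 thinned (-0.43, adjusted p = 0.63). In the Lyve1 contrast they were Dusp5 without cells with markers of other types (0.10) or without Ccr2-bearing cells (0.038). Over all main calls that were tested, 671 of 702 kept their sign with thinned cells and 884 of 891 with at least 50 C1q UMIs per 10000. In every other setting 99.77% or more kept it.

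Genes whose difference depended on genotype, 0 in the main analysis, were 61 higher and 35 lower with no filter, and 1 lower at the threshold of 2.5, 2 without cells with other markers and 1 without Ccr2-bearing cells. Leaving out a library gave 0 to 82 higher and 0 to 83 lower. For age, also 0, they were 52 higher and 48 lower with no filter, 5 and 4 at 1.5, 1 and 2 at 2.5, 1 and 2 without cells with other markers, 4 lower with at least 50 C1q UMIs, and 0 to 53 higher and 0 to 47 lower without a library. For Lyve1, 0 higher and 7 lower in the main analysis, they were 46 and 176 with no filter, 2 and 23 with DESeq2, 7 and 15 without cells with other markers, 1 higher at 1.5, 17 lower at 2.5, 0 lower without Ccr2-bearing cells, 1 lower with total UMI scaling, and 0 to 1 higher and 0 to 9 lower without a library.

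The MHCII-high share was 76.0%, 71.4%, 88.7% and 47.0% at 1.5 and 63.6%, 54.7%, 80.3% and 29.6% at 2.5. It was 58.0%, 55.6%, 79.8% and 28.4% with at least 50 C1q UMIs, 62.6%, 57.7%, 77.4% and 23.6% with 50 per 10000, 51.8%, 49.4%, 66.8% and 16.7% thinned, and 45.6%, 34.7%, 70.4% and 26.7% without Ccr2-bearing cells. Split by H2-Eb1 it was 54.5% in 12-week-DB, with 80.2% for 21-week-WT and 32.8% for 21-week-DB, and without cells with other markers 27.3% in 21-week-DB. With cells between 1.5 and 2.5 left out of both groups it was 72.6%, 65.7%, 87.7% and 35.8%. The main limits are 1 library per condition, groups cut from a continuous count without removal of ambient RNA, and a C1q limit on cells whose C1q level differs between the groups.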

Other observations

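Of the early response and heat-shock genes, 6 higher and 0 lower of 20 tested were called, beside 5.68% and 4.67% of all genes (median 0.28), with Btg2 (0.70, SE 0.11, adjusted p = 0.00183), Hsp90aa1 (0.49, SE 0.08, adjusted p = 0.00171) and Fosb (0.53, SE 0.10, adjusted p = 0.00696) among them. Those higher numbered 2 without 12-week-WT, 13 without 21-week-DB and 0 with at least 50 C1q UMIs per 10000. Of the antioxidant and iron handling genes, 1 higher and 1 lower of 13 tested were called (median -0.17): the cystine transporter Slc7a11 rose, at 36.4, 16, 48.97 and 127 CPM in MHCII-high cells and 9.11, 2.82, 16.1 and 72.6 CPM in MHCII-low cells (log2 fold change 1.44, SE 0.22, adjusted p = 0.00136), and the biliverdin reductase Blvrb fell (-0.47, SE 0.10, adjusted p = 0.00963). Of the glucocorticoid-responsive genes, 1 higher and 2 lower of 10 tested were called (median -0.14): Ddit4, an inhibitor of mTORC1, was higher (0.93, SE 0.18, adjusted p = 0.00657), while Tsc22d3, the glucocorticoid-induced leucine zipper (-0.38, SE 0.09, adjusted p = 0.0153), and Nr3c1, the glucocorticoid receptor (-0.37, SE 0.08, adjusted p = 0.0143), were lower. No member was called lower without 12-week-WT or without 21-week-WT. Of the cell cycle genes, 1 of 13 tested was higher and 0 lower, a share near the 5.68% of all genes called higher (median 0.10), and none was called at the H2-Ab1 threshold of 1.5, at most 5% mitochondrial UMIs or at least 50 C1q UMIs. It was Mki67, a proliferation marker, at 36.4, 30.2, 79.2 and 133 CPM in MHCII-high cells and 25.9, 15.3, 69.9 and 87.2 CPM in MHCII-low cells (log2 fold change 0.64, SE 0.13, adjusted p = 0.00788).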
